A study of Mus musculus with 9 samples.

Results

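Plvap, Ramp2, Cdh5, Aqp1, Klf2 and Nrp1 are genes that endothelial cells, the cells lining blood and lymph vessels, are known to use. The genes were read here in cultured cells of the mouse trachea that were taken as myoepithelial. They are 6 of the 13336 genes in the deposited expression table. They were picked by name because they were higher in the libraries labelled Lef1KI, so their Lef1KI and WT values are given as a description without a test. Myoepithelial cells are contractile, basal-type epithelial cells around the glands of the airway.

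RNA came from 5 Lef1KI libraries and 4 WT libraries, each made from gland cells of 3 to 5 pooled mice. Lef1KI mice carried ACTA2-CreERT2:Lef-1KI+/+, an allele that expresses the transcription factor Lef1 after recombination, and WT mice carried ACTA2-CreERT2:ROSA-TG, a fluorescent reporter. All mice of both groups carried the same Cre, driven by the smooth muscle actin gene ACTA2 and activated by tamoxifen, and all received tamoxifen for 5 days before harvest. Mouse age: not given in the sources used here. Cells were expanded to passage 1 in medium with Y-27632 at 10 µM and DMH-1, A83-01 and CHIR 99021 at 1 µM each, on dishes precoated with a laminin-rich medium. Lef1KI cells were sorted as GFP- and WT cells as GFP+, so effects of gate and genotype cannot be told apart. Libraries are named by the letters of the deposited columns.

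Levels are in TPM, a gene's share of all transcripts in a library after correction for gene length, on a fixed total, so levels may be compared between genes. Lef1 checked the labels: it had between 139.33 and 311.51 TPM in the Lef1KI libraries and between 0.38 and 0.55 TPM in the WT libraries. Krt14, a keratin shared by basal and myoepithelial cells, lay between 5815 and 7715 TPM in every library. The contractile genes that set myoepithelial cells apart were far lower: Acta2 averaged 62.3 ± 31.2 TPM in Lef1KI and 129 ± 41.0 TPM in WT (difference in log2 −1.13, limma adjusted p 0.0834, called without Lef1KI C at −1.36), Tagln 6.84 and 4.95 TPM, and Myh11 0.742 and 0.838 TPM, while Cnn1 and Oxtr were not analysed here. The median log2(TPM + 1) of a library ran from 3.58 in WT A to 3.97 in Lef1KI C, and between 11465 and 12135 genes reached 1 TPM. Read depth is unknown, because TPM keeps no counts.

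Endothelial cells hold to each other through VE-cadherin, the product of Cdh5, and form openings closed by diaphragms that contain the Plvap protein. Their growth and permeability are set by secreted VEGF proteins, which bind kinase receptors with Nrp1 as a co-receptor, and by adrenomedullin, which binds the receptor Calcrl only when Ramp2 or a related protein accompanies it. Klf2 is a zinc-finger transcription factor that flow induces in endothelium, and Aqp1 is a water channel of capillaries and of other cells. Several of these genes are also used outside vessels, Nrp1 by neurons and epithelia and Aqp1 by fibroblasts and kidney tubules.

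All 6 genes were higher in each of the 5 Lef1KI libraries than in each of the 4 WT libraries. Over all genes 10.0% had groups that did not overlap with Lef1KI higher and 1.89% with Lef1KI lower, and nothing is read from the count of 6 because the genes were chosen on this contrast. They ranged widely in level, from about 3 TPM for Plvap and Klf2 to 88.2 TPM for Aqp1 in Lef1KI. The ratio of mean TPM between Lef1KI and WT ran from 1.82 for Nrp1 to 10.2 for Cdh5.

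**Figure D1:**
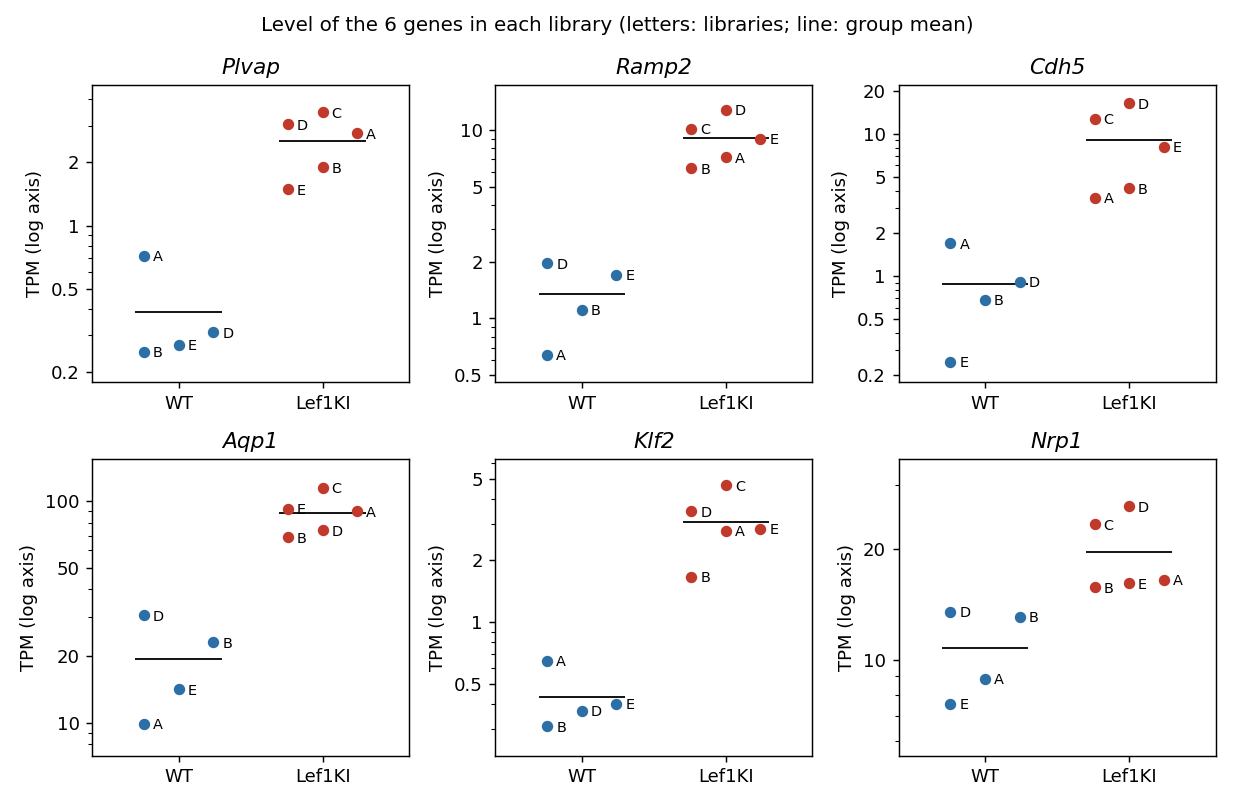
TPM of each of the 6 genes on a log axis, by group; each point is 1 library, marked with its letter, and the line is the group mean. In every panel the lowest Lef1KI library lies above the highest WT library, with the narrowest gap for Nrp1 (15.74 against 13.53 TPM).

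Among the genes of cell contact and surface, Cdh5 (VE-cadherin, ENSMUSG00000031871, mm10 chromosome 8 from 104101625 to 104144511, plus strand) had 3.57, 4.15, 12.76, 16.39 and 8.15 TPM in Lef1KI A to E. In WT A, B, E and D it had 1.70, 0.68, 0.25 and 0.91 TPM. The means were 9.004 ± 5.53 TPM (SD, n = 5) and 0.885 ± 0.608 TPM (SD, n = 4), a difference of 2.27 on the log2(TPM + 1) scale. Lef1KI C and D were high and A and B low, a 4.59-fold range that was the widest of the 6 genes in Lef1KI. Plvap (the diaphragm protein gene, ENSMUSG00000034845, chromosome 8 from 71497765 to 71511752, minus strand) had 2.76, 1.90, 3.47, 3.04 and 1.49 TPM in Lef1KI A to E. It had 0.72, 0.25, 0.27 and 0.31 TPM in WT A, B, E and D. The means were 2.53 ± 0.818 TPM (SD, n = 5) and 0.388 ± 0.223 TPM (SD, n = 4), a log2 difference of 1.33. Here WT A stood above the other WT libraries, and Lef1KI E was the lowest of its group.

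Of the signalling receptors, Ramp2 (the receptor activity-modifying protein, ENSMUSG00000001240, chromosome 11 from 101246028 to 101259546, plus strand) had 7.18, 6.26, 10.15, 12.84 and 8.96 TPM in Lef1KI A to E. In WT A, B, E and D it had 0.64, 1.11, 1.70 and 1.96 TPM. The means were 9.08 ± 2.59 TPM (SD, n = 5) and 1.353 ± 0.593 TPM (SD, n = 4), a log2 difference of 2.10. Lef1KI D was highest and B lowest. Nrp1 (neuropilin 1, ENSMUSG00000025810, chromosome 8 from 128358604 to 128503363, plus strand) had 16.54, 15.74, 23.45, 26.24 and 16.14 TPM in Lef1KI A to E. It had 8.85, 13.11, 7.58 and 13.53 TPM in WT A, B, E and D. With 19.6 ± 4.88 TPM (SD, n = 5) against 10.8 ± 2.998 TPM (SD, n = 4), a log2 difference of 0.82, it was the gene whose groups lay closest. Nrp1 was also the only member besides Aqp1 with a WT mean above 2 TPM.

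Aqp1 (the water channel, ENSMUSG00000004655, chromosome 6 from 55336432 to 55348555, plus strand) had 90.26, 68.82, 115.34, 73.83 and 92.72 TPM in Lef1KI A to E. In WT A, B, E and D it had 9.87, 23.09, 14.15 and 30.56 TPM. The means were 88.2 ± 18.3 TPM (SD, n = 5) and 19.4 ± 9.25 TPM (SD, n = 4), a log2 difference of 2.22. Its Lef1KI libraries lay within 1.68-fold of each other while its WT libraries spread over 3.10-fold. Klf2 (the transcription factor, ENSMUSG00000055148, chromosome 8 from 72319033 to 72321656, plus strand) had 2.80, 1.66, 4.65, 3.48 and 2.86 TPM in Lef1KI A to E. It had 0.65, 0.31, 0.40 and 0.37 TPM in WT A, B, E and D. The means were 3.09 ± 1.09 TPM (SD, n = 5) and 0.432 ± 0.150 TPM (SD, n = 4), a log2 difference of 1.48. Lef1KI C was highest and B lowest.

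In Lef1KI the order of mean level was Aqp1, Nrp1, Ramp2, Cdh5, Klf2 and Plvap. The neighbours Ramp2 and Cdh5, at 9.08 and 9.004 TPM, differed by less than the SD of either, and so did Klf2 and Plvap, at 3.09 and 2.53 TPM. In WT the order was Aqp1, Nrp1, Ramp2, Cdh5, Klf2 and Plvap as well, with Cdh5, Klf2 and Plvap all under 1 TPM on average. The log2(TPM + 1) scale compresses differences of such low genes: with a pseudocount of 0.1 the difference was 2.46 for Plvap and 2.55 for Klf2, against 1.33 and 1.48. Without Lef1KI C and D together, an alternative chosen after the data were seen, the difference was 1.72 for Cdh5 and between 0.58 (Nrp1) and 2.16 (Aqp1) for the other 5 genes. The deposited table holds genes with a mean of 3 SD or more in 1 group or both. Plvap and Cdh5 passed through the Lef1KI group alone, since their WT means were 2.12 and 1.87 SD, and the other 4 passed in both groups.

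Overlapping genes could share reads with a member where the authors' counting did not separate them, and its use of strand was not given in these sources. Ramp2 shares 5840 bases of its annotated span with Vps25 on the same strand, Plvap shares 1819 bases with Gtpbp3 on the other strand, and Cdh5 shares 4249 bases with the antisense gene Gm29682, not analysed here. Vps25, an endosomal sorting gene, averaged 117 ± 24.9 TPM (Lef1KI) and 98.7 ± 9.91 TPM (WT) (difference in log2 0.22, limma adjusted p 0.414). Gtpbp3, a mitochondrial tRNA modification gene, had 15.95 ± 1.49 against 17.2 ± 2.62 TPM (difference in log2 −0.09, limma adjusted p 0.712). Neither neighbour passed the threshold of 0.05. Vps25 stood far above Ramp2 in every library, at 84.68 TPM or more, and how many reads the pair shares was not tested.

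Of the 6 genes, 4 lie on chromosome 8, which holds 5.26% of the genes in the table. Plvap and Klf2 are 0.807 Mb apart. The 17 table genes that lie wholly between them held 0 rises and 0 falls by limma and had a median log2 difference of 0.18, against 0.14 for all genes. On the whole chromosome 6.56% of genes rose, against 6.73% of all genes.

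The RefSeq promoter table (GRCm38.p6, the assembly of mm10) holds a promoter for 3 of the 6 genes, Klf2, Aqp1 and Nrp1, as 250 bases before and 50 after the start site. The bases before the start site are printed 5′ to 3′ on the plus strand to show the start regions of members that were all higher in Lef1KI, and the Klf2 sequence stops where the GENCODE exon begins. The start site is that of RefSeq: the Nrp1 stretch lies inside the GENCODE span of Nrp1, in an intron of a GENCODE transcript that starts further upstream. Capitals mark matches on either strand to 4 motifs: TCF/LEF (CTTTGAA or CTTTGAT, sites of the Lef1 family), KLF/Sp (CACCC), ETS (GGAAG, the core bound by ETS factors, which endothelial genes often use) and MEF2 by its consensus, a factor family that drives Klf2.
Klf2 chr8:72318812-72319032: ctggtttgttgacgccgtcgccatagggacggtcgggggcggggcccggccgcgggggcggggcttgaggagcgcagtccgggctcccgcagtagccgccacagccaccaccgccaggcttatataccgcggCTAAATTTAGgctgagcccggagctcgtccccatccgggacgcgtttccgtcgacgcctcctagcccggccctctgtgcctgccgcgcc
Aqp1 chr6:55336049-55336298: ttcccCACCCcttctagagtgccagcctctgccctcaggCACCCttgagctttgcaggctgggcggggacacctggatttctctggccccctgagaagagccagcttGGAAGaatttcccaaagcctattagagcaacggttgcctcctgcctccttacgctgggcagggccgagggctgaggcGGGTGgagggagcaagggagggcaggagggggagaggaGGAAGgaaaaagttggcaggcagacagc
Nrp1 chr8:128358823-128359072: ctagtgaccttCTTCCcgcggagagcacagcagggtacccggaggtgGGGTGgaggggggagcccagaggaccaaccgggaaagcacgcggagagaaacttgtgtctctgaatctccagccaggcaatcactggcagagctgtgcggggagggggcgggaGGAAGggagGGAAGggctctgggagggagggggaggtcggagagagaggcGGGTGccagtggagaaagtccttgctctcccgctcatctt
The Klf2 window held the MEF2 match CTAAATTTAG, starting 118 bases before the start site. A MEF2 match was found in 3.19% of all 32851 promoters of 300 bases. Over the full 300 bases Klf2 had 1 KLF/Sp match (CACCC) and no ETS match, Aqp1 had 3 and 2, and Nrp1 had 2 and 4. Only CACCC was searched for KLF/Sp. GC-rich stretches, as in the Klf2 sequence, carry no mark and were not counted, so the counts do not rank the genes by KLF/Sp sites. KLF/Sp and ETS matches were common, in 57.5% and 71.4% of all promoters. No TCF/LEF match lay in any of the 3 windows, and 8.65% of all promoters held one of these letters. The matches describe the letters of these windows and do not show binding.

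The Ramp2 pathway was followed through its ligands and receptors. Calcrl, the receptor that Ramp2 escorts to the surface and that turns selective for adrenomedullin with it, had 4.79, 4.92, 8.61, 5.90 and 6.29 TPM in Lef1KI A to E. It had 1.37, 1.22, 1.5 and 1.52 TPM in WT A, B, E and D. All Lef1KI libraries lay above all WT libraries, and Calcrl rose by 1.54 in log2 (SE 0.167, limma adjusted p 0.000657), a call kept in all 9 fits lacking 1 library. Over all 13336 genes limma called 7.97%, made up of 6.73% higher and 1.24% lower. The ligand gene Adm averaged 161 ± 49.9 TPM (Lef1KI) and 105 ± 20.6 TPM (WT), which did not pass (difference in log2 0.58, limma adjusted p 0.143). Ramp3, the other adrenomedullin partner of Calcrl, had 4.16 ± 2.24 against 5.88 ± 0.827 TPM (difference in log2 −0.51, limma adjusted p 0.29), and the decoy receptor gene Ackr3 had 2.53 ± 1.14 against 1.24 ± 0.727 TPM (0.65, limma adjusted p 0.167). Crcp, which couples the receptor to its signal, and the ligand gene Adm2 had differences of 0.52 and −0.01 (limma adjusted p 0.175 and 0.99). Of the 6 measured genes of this list, which excludes Ramp2, 1 rose and 0 fell, with a median log2 difference of 0.55. In Lef1KI the mean of Ramp2 was above that of Ramp3, and in WT it was below.

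Partners of Nrp1 were looked at among VEGF ligands, their receptors, plexins and class 3 semaphorins. Of 18 measured genes 6 rose and 0 fell, with a median log2 difference of 0.22 against 0.14 for all genes. The authors' 3 SD filter kept 3 of the 18 through the Lef1KI group alone. Among the 6 risen genes this held only for Kdr, so the count of rises is shaped in part by that filter. The risen genes comprised 3 ligands. Vegfc, a ligand for lymphatic growth, had 11.96, 8.90, 14.72, 13.79 and 6.42 TPM in Lef1KI A to E and 1.58, 3.69, 2.92 and 3.01 TPM in WT A, B, E and D (difference in log2 1.66, SE 0.256, limma adjusted p 0.00319). No WT library reached the lowest Lef1KI library. Figf, the symbol the table uses for the related ligand VEGF-D, rose from 7.31 ± 1.26 to 20.99 ± 7.39 TPM, and Pgf, placental growth factor, from 1.19 ± 0.442 to 5.37 ± 2.89 TPM (differences in log2 1.347 and 1.437, limma adjusted p 0.00815 and 0.0178). The call of Pgf was lost without WT B (difference in log2 1.33) or WT E (1.39).

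The risen receptors were Kdr, Nrp2 and Plxnd1. Kdr, the main VEGF receptor of endothelium, rose from 0.352 ± 0.166 to 4.06 ± 2.37 TPM (difference in log2 1.79, limma adjusted p 0.00445). Plxnd1, a plexin that binds semaphorins, rose from 0.700 ± 0.175 to 2.52 ± 0.964 TPM (1.01, limma adjusted p 0.00823). Nrp2, the paralog of Nrp1 used with Vegfc, rose from 29.3 ± 8.47 to 56.7 ± 12.8 TPM (0.94, limma adjusted p 0.0208), a call lost without Lef1KI C (0.87), WT B (0.94) or WT D (0.91). Nrp2 was thus the more abundant neuropilin in both groups, above Nrp1 at 19.6 and 10.8 TPM. Vegfa, the classical ligand, was abundant in both groups at 112 ± 60.6 and 127 ± 54.8 TPM and did not pass (difference in log2 −0.17, limma adjusted p 0.805). Sema3f, a semaphorin gene, and Gipc1, whose product binds the tail of Nrp1, had log2 differences of −0.01 and 0.05 and did not pass (limma adjusted p 0.978 and 0.875).

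**Figure D2:**
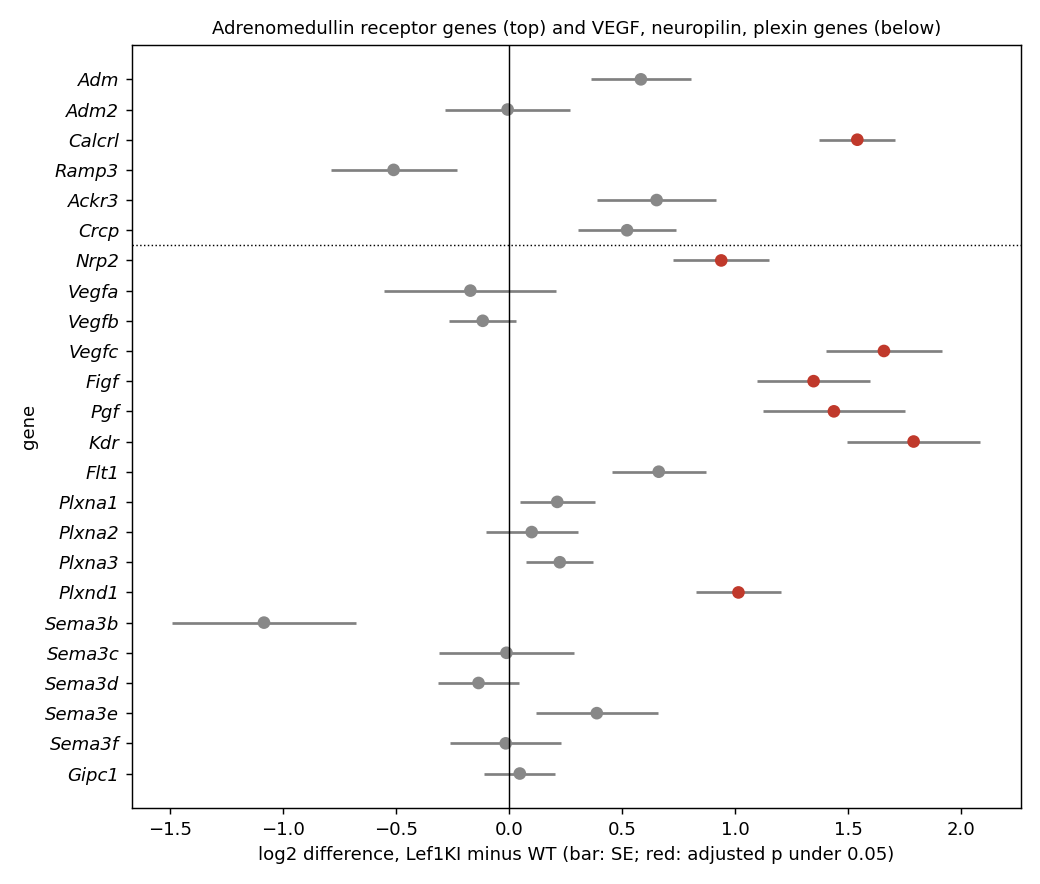
Log2 difference between Lef1KI and WT, on the log2(TPM + 1) scale, for the measured genes of the adrenomedullin list (above the dotted line) and of the VEGF, neuropilin, plexin and semaphorin list (below it); bars are SE and red points passed limma at an adjusted p under 0.05. Calcrl stands at 1.54 in the upper part, and the 6 red genes of the lower part lie between 0.94 (Nrp2) and 1.79 (Kdr).

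Relatives of Klf2 and Aqp1 gave 0 rises. Of 13 measured KLF genes none passed limma in either direction, and their median log2 difference was −0.04. Klf6, Klf4 and Klf5, the 3 most abundant over the 9 libraries, had means of 198, 150 and 137 TPM in Lef1KI and 203, 155 and 137 TPM in WT, far above Klf2. Of the 4 other aquaporins measured none passed. Aqp3, the glycerol and water channel of basal epithelium, had 141 ± 51.1 TPM in Lef1KI against 248 ± 101 TPM in WT, and Aqp5, the channel of gland acini, had 40.2 ± 31.8 against 135 ± 137 TPM (differences in log2 −0.80 and −1.17, limma adjusted p 0.174 and 0.422). Aqp9, the third in level, averaged 0.624 and 0.570 TPM (−0.02, limma adjusted p 0.973). Of 13 regulators and targets of Klf2, 2 rose. S1pr1, a sphingosine phosphate receptor gene that Klf2 activates, rose from 0.810 ± 0.270 to 5.14 ± 2.98 TPM (difference in log2 1.63, limma adjusted p 0.0123). Mef2a, a MEF2 factor, rose from 35.2 ± 3.31 to 51.4 ± 7.39 TPM (0.53, limma adjusted p 0.0324). The Mef2a call was kept in 4 of 9 fits lacking 1 library (differences in log2 between 0.48 and 0.59) and under neither median centring (limma adjusted p 0.235) nor trimmed-mean scaling (0.199). Txnip, which flow and metabolism regulate, averaged 83.0 ± 14.4 TPM against 57.4 ± 10.9 TPM and did not pass (0.53, limma adjusted p 0.0631), and neither did Mef2d, a MEF2 factor (0.15, limma adjusted p 0.605). The Klf2 targets Thbd (thrombomodulin) and Nos3 (endothelial nitric oxide synthase) did not pass (differences in log2 0.37 and 0.33, limma adjusted p 0.304 and 0.154).

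Partners of the other surface genes were taken from the cadherins, catenins and caveolae. Of 11 measured cadherins and catenins 4 rose and 0 fell. Cdh11, a mesenchymal cadherin, rose from 1.76 ± 0.416 to 6.37 ± 1.94 TPM and Ctnnd2, a delta-type catenin, from 0.165 ± 0.126 to 1.72 ± 0.5003 TPM (differences in log2 1.39 and 1.21, limma adjusted p 0.0028 and 0.000897). The authors' 3 SD filter kept 3 of the 11 genes, Ctnnd2 among them, through the Lef1KI group alone, which shapes the count of rises. The epithelial cadherin Cdh1 and placental cadherin Cdh3 rose by 0.43 and 0.48 in calls that ended under both scalings (limma adjusted p 0.211 and 0.255 with median centring) and, for Cdh1, without WT B (0.39). Under each scaling 2 of the 11 genes were higher and 1, Cdh13, was lower. Cdh13 averaged 21.6 ± 7.41 TPM in Lef1KI against 39.5 ± 8.55 TPM in WT and did not pass the main fit (−0.89, limma adjusted p 0.0566). It was called lower under median centring (limma adjusted p 0.0433), under trimmed-mean scaling (0.0476) and without Lef1KI A (−1.02). The Cdh3 call was kept in 3 of 9 fits lacking 1 library (0.38 to 0.54). The catenins that bind VE-cadherin and other cadherins, Ctnnb1 and Jup, did not pass (0.27 and 0.22, limma adjusted p 0.218 and 0.199). Cdh5 at 9.004 TPM remained far below Cdh1 at 363 TPM in Lef1KI. Of 8 genes of caveolae, the membrane pits that share vesicle traffic with Plvap, none passed, and the median log2 difference was 0.28. The 3 most abundant were Cav1, the caveolin gene, Ptrf, which encodes a caveola coat protein, and Ehd2, which encodes an ATPase at the caveola neck. Ptrf averaged 108 ± 44.7 against 70.8 ± 23.7 TPM and Ehd2 75.7 ± 15.3 against 64.5 ± 12.4 TPM (0.55 and 0.22, limma adjusted p 0.301 and 0.471). Prkcdbp, another coat protein gene, averaged 51.7 ± 22.8 against 22.8 ± 12.0 TPM (1.14, limma adjusted p 0.0862) and was called without Lef1KI A (1.37) or WT A (1.44). Cav1 averaged 121 ± 27.2 against 183 ± 41.8 TPM (−0.59, limma adjusted p 0.077), which fell under trimmed-mean scaling (adjusted p 0.0491 in limma) and without Lef1KI E (−0.71).

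Other endothelial genes were higher in Lef1KI too, at low levels. Of 38 further endothelial genes on a list 21 were measured, and 10 rose and 0 fell, with a median log2 difference of 0.97. The authors' 3 SD filter kept 13 of these 21 through the Lef1KI group alone, against 6.93% of all genes, so the count of rises is shaped by that filter. Of the 10 risen genes only Eng, S1pr1 and Lyve1 passed the filter in both groups. The junction gene Pecam1 rose from 0.480 ± 0.189 to 4.72 ± 2.83 TPM, and the surface sialomucin gene Emcn from 0.715 ± 0.503 to 7.24 ± 4.19 TPM (differences in log2 1.81 and 2.11, limma adjusted p 0.00777 and 0.00951). Eng, a co-receptor of TGF-beta, rose from 3.56 ± 0.338 to 15.8 ± 7.35 TPM (1.77, limma adjusted p 0.00398). Lyve1 and Mmrn1, known from lymphatic endothelium, rose from 0.860 ± 0.338 to 8.82 ± 6.24 TPM and from 0.888 ± 0.488 to 12.0 ± 9.52 TPM (2.21 and 2.52, limma adjusted p 0.00545 and 0.00638). Prox1 and Flt4, lymphatic genes of the same list, were not analysed here. The ETS factor gene Fli1, Mmrn2 and Rasip1 rose to between 1.07 and 1.23 TPM, the last in a call that was kept in 3 of 9 fits lacking 1 library (0.64 to 0.86). S1pr1 and Kdr, given above, complete the 10.

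Of 12 defining endothelial markers 6 were measured: Pecam1, Kdr and Emcn rose, and Tek, Egfl7 and Esam did not pass. The other 6 (Tie1, Erg, Cldn5, Sox17, Sox18 and Vwf) were not analysed here. Tek, an angiopoietin receptor, was at 0.238 ± 0.124 TPM in Lef1KI and 0.220 ± 0.0548 TPM in WT (difference in log2 0.02, limma adjusted p 0.926). Egfl7, a secreted vascular protein, had 32.7 ± 15.9 against 13.9 ± 5.82 TPM (1.10, limma adjusted p 0.112, called without Lef1KI A at 1.33), and Esam had 2.15 ± 0.895 against 5.24 ± 4.10 TPM (−0.74, limma adjusted p 0.321). The 21 genes summed to between 82.4 and 211 TPM per Lef1KI library and between 54.8 and 64.8 TPM per WT library. A large part of these sums came from Egfl7 and Thbd, which did not pass. They averaged 13.9 and 19.96 TPM in WT and 32.7 and 25.2 TPM in Lef1KI. In bulk RNA fewer cells of a type and less RNA per cell cannot be told apart.

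**Figure D3:**
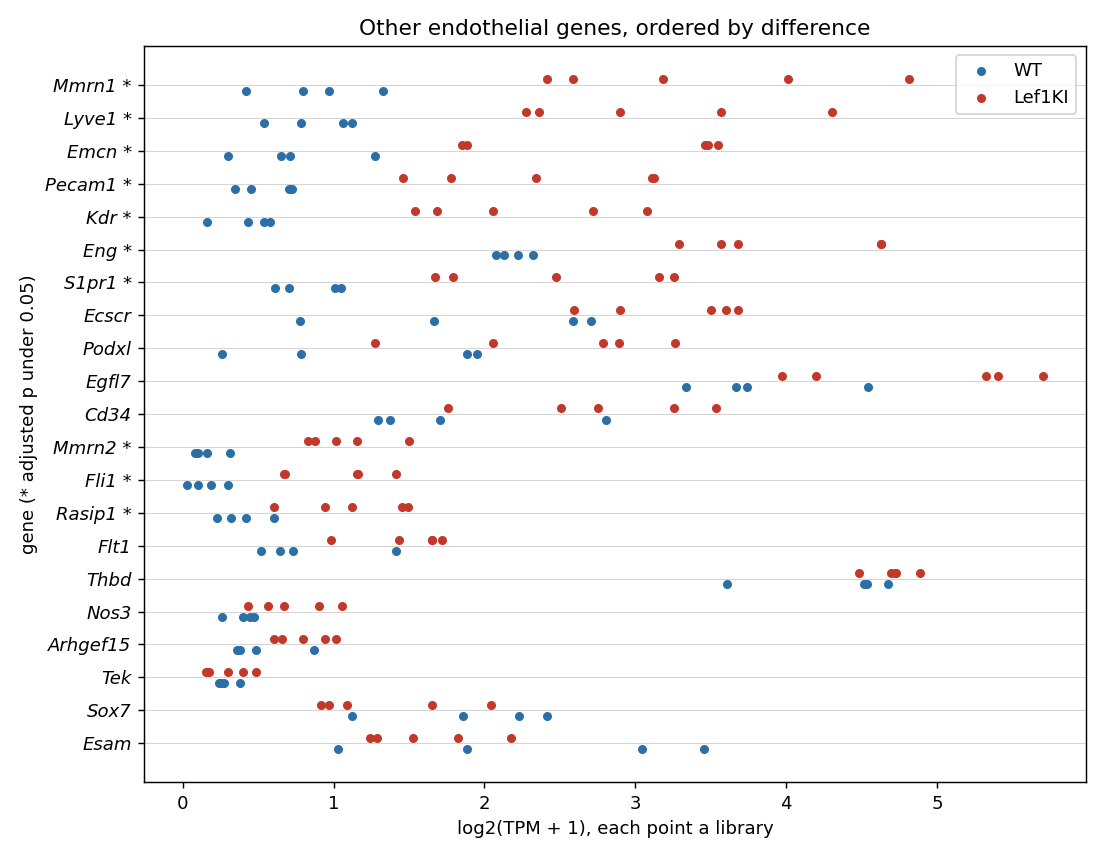
Log2(TPM + 1) of the 21 other endothelial genes, ordered by the difference between groups; each point is 1 library, red for Lef1KI and blue for WT, and an asterisk marks an adjusted p under 0.05 in limma. The 10 marked genes include Mmrn1 and Lyve1 at the top, and Esam and Sox7 at the bottom have lower Lef1KI means.

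Markers of other cell types moved in part with the 6 genes. Fibroblast genes rose in 15 of 16 measured and summed to between 574 and 1506 TPM per Lef1KI library against 156 to 277 TPM per WT library (median log2 difference 1.97). Among them the collagen genes Col6a3, Col1a1 and Col5a1 rose from 8.71 to 73.1 TPM, from 4.96 to 40.4 TPM and from 3.15 to 20.7 TPM (limma adjusted p 0.000378, 0.000628 and 0.000628). Of 7 measured mural cell genes, which mark the contractile cells around vessels, 1 rose, Pdgfrb, which the fibroblast list also holds, and the sums overlapped (65.2 to 124 TPM in Lef1KI, 99.1 to 119 TPM in WT). Of 14 listed leukocyte genes 4 were measured and 2 rose (Lyz2 and Coro1a), with sums of 68.1 to 253 TPM in Lef1KI and 120 to 268 TPM in WT. The authors' 3 SD filter kept both risen genes through the Lef1KI group alone, against 6.93% of all genes, which shapes this count. Coro1a, at 0.544 TPM in Lef1KI, was not called under median centring (limma adjusted p 0.174) or without WT B or WT E (0.45 and 0.39). Cd68, which held most of the sum in each library, averaged 93.7 ± 82.1 TPM in Lef1KI against 179.6 ± 60.9 TPM in WT. It did not pass (difference in log2 −1.18, limma adjusted p 0.1355) but was called lower without Lef1KI A (−1.59). Of 4 Schwann cell genes Ngfr, which basal cells also express, fell by 1.07, a call that was kept in 5 of 9 fits lacking 1 library (−1.19 to −0.88), with sums of 9.61 to 17.7 TPM in Lef1KI and 12.7 to 30.3 TPM in WT. Ngfr passed the 3 SD filter through the WT group alone. Of 2 mesothelial genes neither passed (sums of 67.9 to 959 TPM and 165 to 266 TPM). The keratin gene Krt19 held most of the mesothelial sum in each library, at 805.86 TPM in Lef1KI E. Erbb3 held most of the Schwann sum in each library, so both sums mainly follow 1 gene. Basal and myoepithelial genes summed to between 20487 and 24539 TPM in Lef1KI and between 15723 and 22647 TPM in WT, with 1 of 10 higher, Cdh1. The part of these cell types in the levels of the 6 genes was not tested.

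Whether the genes follow each other from library to library was asked within groups. Each gene was centred on its group mean, so that the contrast that chose the genes was removed, and Pearson's r and Spearman's rho were taken over the 9 libraries with an exact two-sided permutation of libraries within groups. No pooled correlation is given, because the groups form separate clusters. Of 15 pairs 13 had a positive r, with a median of 0.45. For comparison, the median r of each gene with all other genes ran from −0.10 for Plvap to 0.28 for Ramp2. With median centring of the libraries every pair had a lower r except Plvap with Klf2, at 0.74. It was then −0.07 for Plvap with Ramp2, −0.15 for Aqp1 with Klf2 and 0.19 for Ramp2 with Klf2. The medians over all other genes were taken without that centring.

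None of the 15 pairs passed after Benjamini-Hochberg adjustment, and 0 had an unadjusted p under 0.05 by r and 1 by rho. The highest were Cdh5 with Klf2 (r = 0.74, exact permutation p 0.0594, adjusted 0.434; rho = 0.77, p 0.0451, adjusted 0.443) and Plvap with Klf2 (r = 0.72, exact permutation p 0.0618, adjusted 0.434; rho = 0.73, p 0.0618, adjusted 0.443). Without the 2 libraries farthest from the median of the first gene, r was 0.88 and 0.84. Cdh5 with Nrp1 gave r = 0.62 and rho = 0.58 (exact permutation p 0.0868 and 0.119, adjusted 0.434 and 0.443), and r = 0.45 without the 2 farthest libraries. Aqp1 had r = 0.60 with Nrp1 and 0.48 with Ramp2 but −0.01 with Cdh5 and −0.17 with Plvap, and none of these 4 passed (exact permutation adjusted p between 0.476 and 0.974). A p above the threshold over 9 libraries does not show that 2 genes vary independently.

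**Figure D4:**
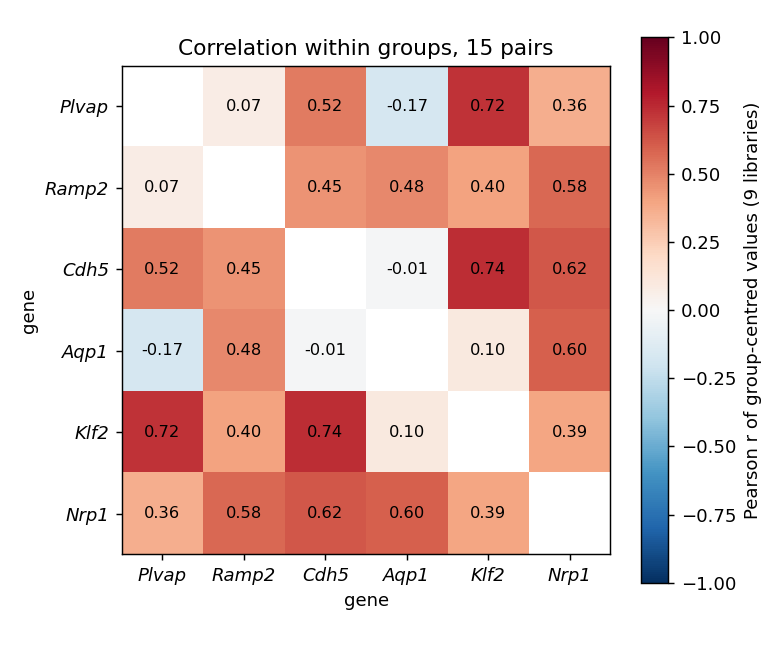
Pearson r of group-centred log2(TPM + 1) over 9 libraries for the 15 pairs of genes, from blue (negative) to red (positive). Klf2 has its highest values with Cdh5 (0.74) and Plvap (0.72), and Aqp1 is near 0 or below with Cdh5 and Plvap.

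Each gene was also set against 5 other measures in the same way: Lef1, and the mean log2 values of the other endothelial, fibroblast, mural and basal or myoepithelial genes. Of these 30 relations 0 passed after adjustment, and 6 had an unadjusted p under 0.05 by r and 4 by rho. With the mean of the 21 endothelial genes Cdh5 had r = 0.86, Ramp2 0.70 and Nrp1 0.69 (exact permutation p 0.0333, 0.033 and 0.0323, adjusted 0.242 each; rho = 0.80, 0.73 and 0.65, adjusted 0.247 each). Without the 2 libraries farthest from the median of that mean, Lef1KI A and C, r was 0.79, 0.79 and 0.75. With the fibroblast mean Aqp1 had r = 0.55 (exact permutation p 0.0486, adjusted 0.243; rho = 0.65) and Nrp1 0.70 (p 0.0625, adjusted 0.243; rho = 0.77), and 0.67 and 0.69 without the 2 farthest libraries. With the mural mean Plvap had r = 0.74 and Nrp1 0.64 (exact permutation p 0.0403 each, adjusted 0.242; rho = 0.62 and 0.65), and r was 0.42 and 0.74 without Lef1KI E and D. The mural and fibroblast lists share Pdgfrb. With the basal and myoepithelial mean Cdh5 had r = 0.69 (exact permutation p 0.0649, adjusted 0.243; rho = 0.65), and r = 0.34 without Lef1KI A and WT E, while the other 5 genes lay between 0.01 and 0.39. With Lef1 itself no gene had an r above 0.16, and Ramp2 had −0.51 (exact permutation p 0.198, adjusted 0.463; rho = −0.70). These values with Lef1 rested on single libraries and moved both ways. Without Lef1KI D and B r was 0.86 for Plvap, 0.83 for Klf2 and 0.02 for Ramp2, and without Lef1KI C alone it was −0.19, −0.82 and −0.77 for these genes, −0.68 for Cdh5 and −0.49 for Nrp1.

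**Figure D5:**
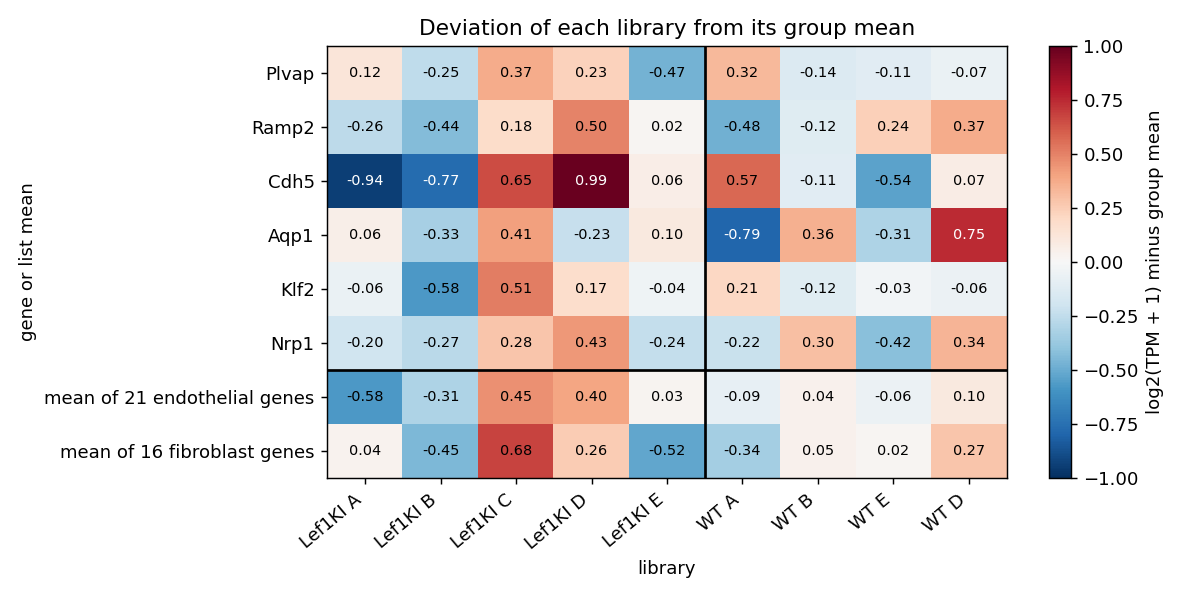
Deviation of each library from its group mean on the log2(TPM + 1) scale for the 6 genes and, below the line, for the means of the 21 other endothelial and 16 fibroblast genes; red is above and blue below the group mean. Lef1KI C is above its group mean in every row and Lef1KI B below it, while Lef1KI A, D and E differ between rows.

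Within the Lef1KI group the order of libraries was shared in part. The highest of the 5 was C for Plvap, Aqp1 and Klf2 and D for Ramp2, Cdh5 and Nrp1, and the lowest was B for 4 of the 6 genes. Of the 21 other endothelial genes 20 were highest in C or D, 10 in each, and of the 16 fibroblast genes 14 were highest in C and 0 in D. Lef1KI C also had the highest median level of all genes, given above. Lef1 was highest in B and C, at 311.51 and 308.80 TPM, and lowest in D.

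Ratios within libraries were looked at after these values were seen and are given as a description. Cdh5 varied 4.59-fold over the Lef1KI libraries, but its ratio to Pecam1, which varied 4.41-fold, was 2.04, 1.71, 1.67, 2.13 and 2.01 in A to E, a 1.28-fold range. As a share of the summed fibroblast genes Cdh5 spread over 4.08-fold. Plvap varied 2.33-fold, and as a share of the summed fibroblast genes it was 0.269%, 0.263%, 0.230%, 0.255% and 0.260% in A to E, a 1.17-fold range. Its ratio to Pecam1 spread over 4.30-fold. Aqp1 varied only 1.68-fold in TPM, and its ratio to Pecam1 was 51.6 in Lef1KI A and 9.58 in Lef1KI D. Its ratio to Pecam1 thus spread over 5.39-fold and its share of the fibroblast sum over 2.61-fold, both wider than its TPM. For Ramp2, Klf2 and Nrp1 the ratio to Pecam1 spread over 3.10-fold, 3.55-fold and 3.09-fold and the share of the fibroblast sum over 2.32-fold, 2.17-fold and 1.81-fold, against 2.05-fold, 2.80-fold and 1.67-fold in TPM. Among the other 20 endothelial genes 14 had a narrower range after division by Pecam1, among them S1pr1 (1.23-fold against 3.92-fold in TPM) and Kdr (1.49-fold against 3.89-fold), although Podxl and Tek narrowed little (5.91-fold against 6.06-fold and 3.49-fold against 3.64-fold). After division by the fibroblast sum 9 of the 20 were narrower, and 11 of the 20 had a narrower range by Pecam1 than by the fibroblast sum.

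The genes whose deviations were most like the mean profile of the 6, among 11424 genes of at least 1 TPM in a group, were Dbn1 (r = 0.98), Ebf1 (0.965), Csgalnact1 (0.961), Nfkbie (0.955), Il1r1 (0.95), Psen2 (0.95), Lrp3 (0.94) and Plxnd1 (0.94), over 9 libraries. The median r of all 11424 genes with that profile was 0.20. The 8 genes were picked as the highest of that ranking over only 9 libraries. Their high r follows in part from this choice and was not tested. Il1r1, the interleukin 1 receptor gene, averaged 9.89 ± 3.96 TPM (Lef1KI) and 2.45 ± 0.730 TPM (WT), and Ebf1, a transcription factor gene, had 1.67 ± 0.711 against 0.375 ± 0.146 TPM. Psen2, a gamma-secretase gene, had 6.55 ± 1.996 against 4.81 ± 0.815 TPM and was the only gene of these 8 that limma did not call between groups (adjusted p 0.336). The calls of Dbn1 and Csgalnact1 were kept in 3 and 4 of 9 fits lacking 1 library (differences of 0.76 to 1.04 and 0.66 to 0.89), and that of Dbn1 ended under both scalings (limma adjusted p 0.0672 and 0.0723).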

How the data were processed

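RNA of 9 sorted cell pools was sequenced from stranded mRNA libraries. The deposited values are log2(TPM + 1): the authors ran RSEM with mm10, per the submitters' processing notes; version, aligner and annotation: not given in the sources used here. As a check of this unit, values under 50 TPM were converted back and return to whole hundredths of a TPM (within 0.01 of a hundredth). The authors' columns of group mean and SD, also log2, equal those recomputed. Columns were matched to groups by name; their letters are tied to no replicate number of the labels. No batch is labelled, and no 2 libraries held the same values (at most 92 genes exactly equal).

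Lef1KI and WT were tested using limma 3.58.1 (R 4.3.3; intensity trend, group only, no further filter), with Benjamini-Hochberg adjustment over 13336 genes and a threshold of 0.05; "rose" and "fell" mean past it. P-values are two-sided and measure the spread between pools. Within-group correlations used all 2880 permutations of libraries within groups in Python 3.11.15 (numpy 2.4.6), adjusted over 15 pairs or 30 relations. Both were tested on simulated data. Positions come from GENCODE M21. The members and lists were chosen with earlier results of these data known. Named genes are the 6 members, Lef1, genes of the pathway and endothelial lists that passed, the 3 most abundant of each pathway list, the defining endothelial markers, up to 4 per direction of the other cell type lists, and the 8 genes most like the members. Ramp3, Ackr3, Thbd, Nos3, Sox7, Podxl, Prkcdbp, Acta2, Tagln, Myh11, Cd68, Cdh13, Krt19 and Erbb3 were added after their values were seen, and so were the overlapping neighbours. Alternatives were 2 scalings, a pseudocount of 0.1, a filter at 1 TPM, no trend, linear TPM for the pairs, leaving out libraries and, added later, a block on the column letter. The count models planned in case of counts could not be applied to TPM.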

Additional observations from a re-analysis of the deposited data

Results flagged for a closer look

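In WT, Plvap in library WT A, at 0.72 TPM, lay apart from the other 3 libraries, the next of which had 0.31 TPM. Its gap to the nearest library was 0.853 of the group's range. Cdh11 in WT A, at 1.14 TPM, lay below the next library at 1.90 TPM, with a gap of 0.9 of the range. These were the 2 cases among 64 groups of 1 gene each that were examined, and chance alone marks about 1 group in 20.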

How the results depend on the processing

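Over all genes 1063 changed, 898 higher and 165 lower (84.5% higher), against 64.6% higher with median centring (605 and 332) and 66.7% with trimmed-mean scaling (612 and 306). The count of changed genes lay between 628 and 1686 when 1 library was left out (628 for WT E, 643 for WT B, 1686 for Lef1KI A) and was 515 without Lef1KI C and D. The differences of the 6 genes, whose sign their choice fixed, moved by more than 1 SD only with a pseudocount of 0.1, to 2.46 for Plvap, 2.72 for Ramp2, 3.20 for Cdh5 and 2.55 for Klf2. Apart from the block on the column letter, counts of risen genes stayed within 1.5 times, at 8 to 14 of the other endothelial genes, 1 of the adrenomedullin genes and 4 to 7 of the VEGF, neuropilin and semaphorin genes. Under no alternative run on the correlations did a pair of the 6 genes or a relation to the 5 other measures pass the adjusted threshold, but single r values varied widely: Ramp2 with Cdh5 ran from 0.05 to 0.94 and Klf2 with Lef1 from −0.82 to 0.60. The replicate numbers of the labels could not be used as a block, since nothing ties them to the column letters. Both groups share the letters A, B, D and E, so a block on the letter was run after the data were seen: 484 genes changed, with 6 other endothelial, 1 adrenomedullin and 5 VEGF, neuropilin and semaphorin genes higher. Nothing in the labels says that a letter pairs libraries, the deviations of same-letter libraries correlated at −0.26 to 0.26 over all genes, and 1 of the 4 WT libraries correlated best with its own letter. Depth is unknown, so no counting error is given for genes under 1 TPM.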
